A study of Homo sapiens with 12 samples.

Results

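The genes described here are 7 components of the Hedgehog pathway, followed across 4 groups of G401 cells, a human malignant rhabdoid tumour line with the genotype SMARCB1(-/-). They are GLI1 (ENSG00000111087.5), GLI2 (ENSG00000074047.16), GLI3 (ENSG00000106571.8), PTCH1 (ENSG00000185920.11), SMO (ENSG00000128602.5), SUFU (ENSG00000107882.7) and HHIP (ENSG00000164161.5). They were chosen by name as parts of the pathway, with earlier results of these data known, and found by gene identifier as 7 of the 57820 genes in the tables. Doxycycline was used in every group, to induce either GFP as a control protein or SMARCB1, which belongs to the core of most SWI/SNF chromatin remodelling complexes. Cells of each state then received DMSO alone or the degrader dBRD9-A for 24 h. The degrader removes BRD9, a protein found in the non-canonical form of SWI/SNF. The groups are called GFP DMSO, GFP dBRD9-A, SMARCB1 DMSO and SMARCB1 dBRD9-A, with 3 libraries each of polyadenylated RNA. The promoter of the inducible construct, the clonality of the cells and whether replicates were separate cultures are not given in the labels, so p-values measure the spread between these libraries alone, which may be technical.

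In the Hedgehog pathway a secreted ligand binds the receptor PTCH1, which in the absence of ligand holds down the membrane protein SMO. Active SMO, acting in the primary cilium, releases the GLI transcription factors from SUFU, which binds and restrains them. GLI2 and GLI3 are the factors that respond first, and GLI3 serves largely as a repressor when the pathway is off. GLI1 is an activator and is itself a target of the pathway, as are PTCH1 and HHIP, a membrane protein that binds and sequesters ligand. PTCH1 and HHIP thus act as negative feedback. SMARCB1 has been described as binding GLI1 and restraining GLI1 target genes, and the question here is how mRNA of the pathway differs between cells with and without SMARCB1, and with and without BRD9.

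The promoter of PTCH1 with a match to the consensus site of the GLI factors, and that of HHIP, are shown because transcripts of both genes were higher with SMARCB1. Both come from RefSeq on GRCh38.p14 and run 5′ to 3′ on the strand of the gene, from 250 bases before a transcript start to 50 bases into the transcript. They lie at chr9:95509217-95509516 on the minus strand for PTCH1 and at chr4:144645906-144646205 on the plus strand for HHIP. Capitals mark the match to GACCACCCA, read here on the opposite strand as TGGGTGGTC.
PTCH1: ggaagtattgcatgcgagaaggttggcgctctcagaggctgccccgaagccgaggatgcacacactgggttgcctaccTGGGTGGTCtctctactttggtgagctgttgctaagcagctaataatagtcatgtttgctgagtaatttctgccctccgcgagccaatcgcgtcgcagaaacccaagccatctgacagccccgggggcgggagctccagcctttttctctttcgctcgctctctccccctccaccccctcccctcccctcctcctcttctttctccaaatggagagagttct
HHIP: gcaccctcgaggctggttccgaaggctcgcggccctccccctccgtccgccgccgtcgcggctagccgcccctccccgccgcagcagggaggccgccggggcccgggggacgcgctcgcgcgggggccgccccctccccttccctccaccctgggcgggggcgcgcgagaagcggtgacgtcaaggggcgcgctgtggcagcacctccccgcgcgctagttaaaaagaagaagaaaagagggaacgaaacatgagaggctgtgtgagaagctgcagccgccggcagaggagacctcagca
The match begins 172 bases before the start. GACCACCCA was searched without mismatches on both strands in 35116 promoters of this length, and 83 (0.236%) held it. Of the members, 5 were in the promoter table with 10 promoters, and the PTCH1 promoter shown was the 1 with a match. The other 4 PTCH1 promoters, both GLI2 promoters and those of HHIP, SMO and SUFU had none, which says only that these letters are not in these windows. GLI1 and GLI3 were not matched in the promoter table. A match of letters is a description and does not show binding.

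The depth ranged from 34.97 to 58.54 megacounts per library (mega as in megabase), and levels are given as counts per megacount on TMM-scaled library sizes (CPM). A count of 3 per library, the floor under which a gene is not told from absent, corresponded to 0.0516 to 0.0847 CPM and covers counting error only. SMARCB1 mRNA had 0 to 2 counts per GFP library, and between 53033 and 110893 per SMARCB1 library, as labelled. Among SMARCB1 cells it was lower with dBRD9-A, at 1277 to 1327 CPM against 1807 to 1912 CPM in DMSO (log2 change -0.52, SE 0.03, adjusted p 4.95e-08). BRD9 mRNA had group means of 38.3 to 47.5 CPM, which does not check a degrader that acts on the protein. The rhabdoid markers VIM, KRT8, KRT18, EZR and SALL4 were expressed in all 12 libraries. Of 10 markers of fibroblasts, endothelium, blood and liver in the tables, DCN, LUM, PTPRC, CD3E and ALB had 0 to 1 counts. The summed level of the 10 was 417 to 442 CPM in GFP DMSO, 364 to 370 in GFP dBRD9-A, 152 to 159 in SMARCB1 DMSO and 128 to 140 in SMARCB1 dBRD9-A libraries, and it came almost wholly from COL1A1 and CD68. The other 8 markers summed to at most 0.121 CPM in a GFP library and to 0.701 to 1.13 CPM in the SMARCB1 libraries. Their part in the results was not tested.

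With SMARCB1, GLI1 mRNA was 7.54-fold lower while PTCH1, SUFU and HHIP mRNA were higher, and no change in SMO mRNA was called. Of the 7 members, 5 passed the count filter (GLI2 and GLI3 did not), and 4 of these 5 changed between SMARCB1 and GFP cells in DMSO, 3 higher and 1 lower. This stands beside 65% of the 15750 genes tested, so a change as such was common. Of the 4, HHIP had 0 to 1 counts in GFP libraries and passed the filter through the SMARCB1 libraries alone. Its call between the cell states was therefore nearly fixed in advance. The same 4 genes changed in the same directions in dBRD9-A, where 63.3% of genes were called. All adjusted p values are from edgeR's quasi-likelihood test with Benjamini-Hochberg adjustment over all genes tested and a threshold of 0.05.

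**Figure D1:**
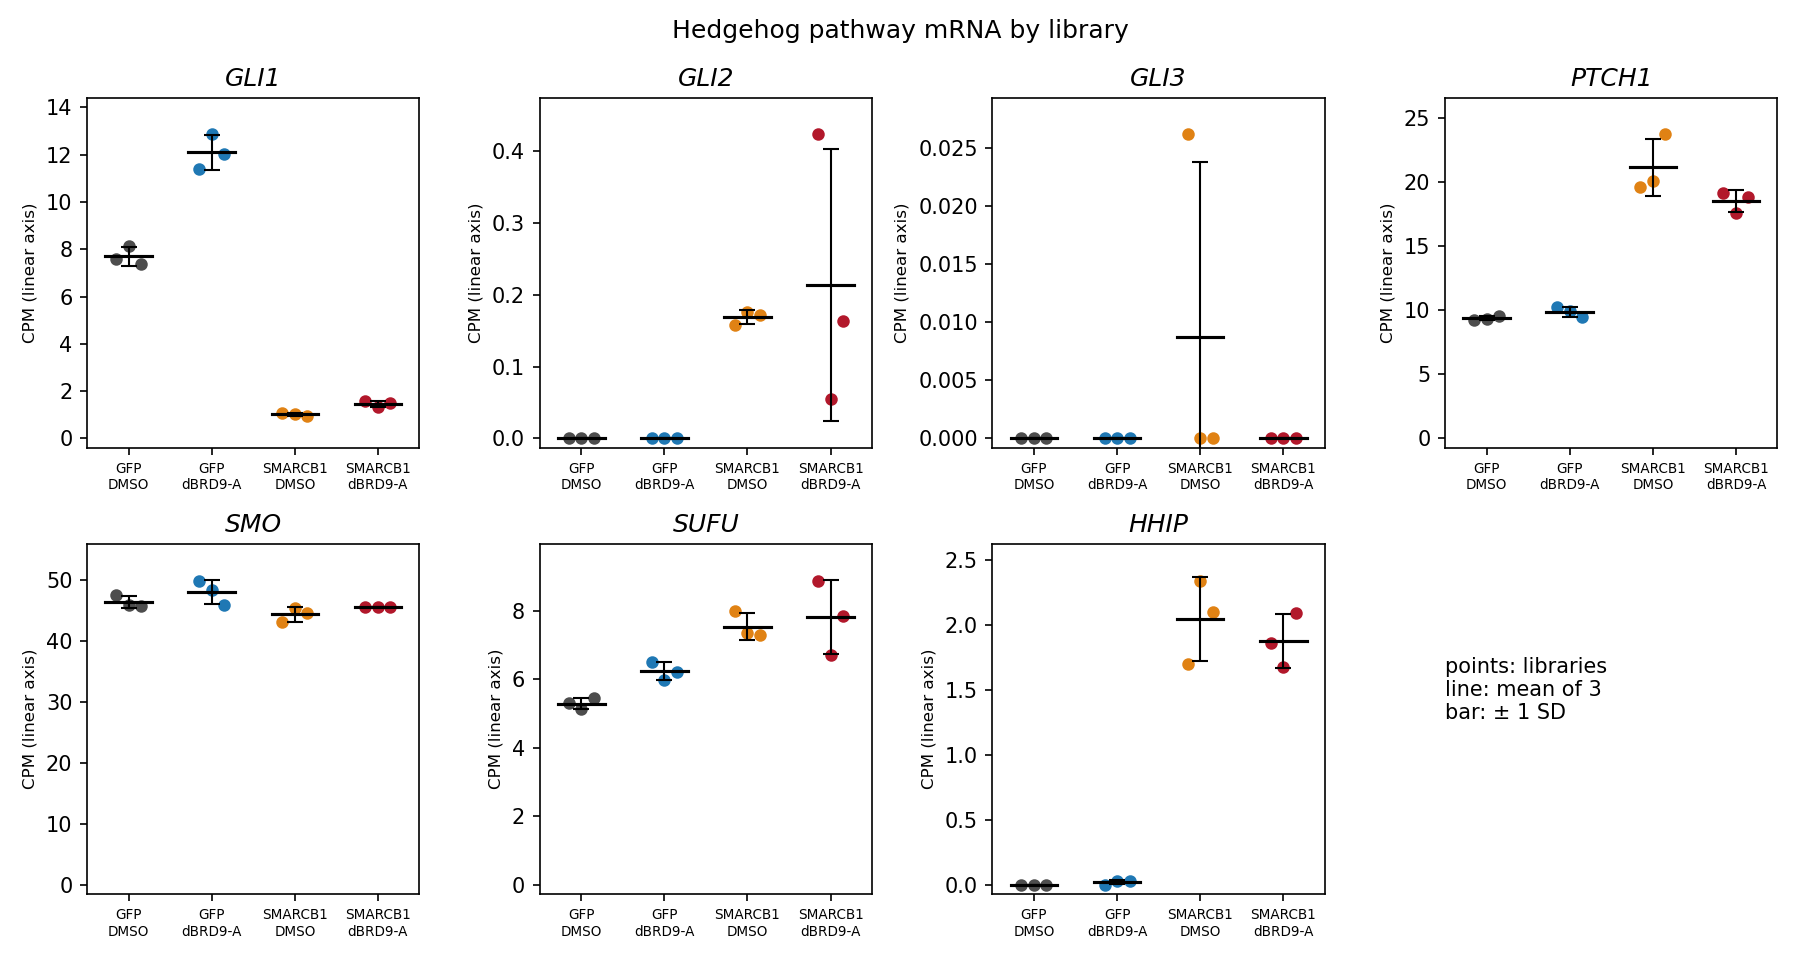
Level of each of the 7 genes in CPM (linear axis, its own range per gene) in the 4 groups; points are libraries, the horizontal line is the mean of 3 and the bar is ± 1 SD. GLI1 lies at 7.38 to 12.85 CPM in GFP libraries and at 0.963 to 1.57 CPM in SMARCB1 libraries, whereas PTCH1 and HHIP are higher in each SMARCB1 library than in any GFP library.

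GLI1, the activator that serves as a standard readout of the pathway, had 7.58, 8.14 and 7.38 CPM in the 3 GFP DMSO libraries and 1.07, 1.03 and 0.963 CPM in the SMARCB1 DMSO libraries. The groups did not overlap, and the lowest GFP library was several times the highest SMARCB1 library. In raw numbers these were 336 to 427 counts against 41 to 56 counts, well above the floor in both. The log2 fold change was -2.92 (SE 0.11, 95% interval -3.14 to -2.69, adjusted p 6.37e-14), or 7.54-fold lower with an interval of 6.47 to 8.79. In dBRD9-A the libraries had 11.39, 12.85 and 12.03 CPM without SMARCB1 and 1.57, 1.31 and 1.51 CPM with it. That is a log2 change of -3.06 (SE 0.10, adjusted p 9.97e-15), or 8.31-fold lower. These are bulk RNA levels, in which fewer cells expressing a gene and less RNA per cell cannot be told apart.

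GLI2, a main activator of the pathway, had 0 counts in each of the 6 GFP libraries. In SMARCB1 DMSO libraries it had 6, 7 and 10 counts, and in SMARCB1 dBRD9-A libraries 17, 3 and 7. The gene was thus detected above the floor in 5 of the 6 SMARCB1 libraries and at the floor in the other, at a low level throughout. Against the floor per library, the mean was at least 2.84-fold higher in DMSO and at least 2.74-fold higher in dBRD9-A. GLI2 did not pass the filter on low counts, and in the fit without that filter its adjusted p was 4.1e-06 in DMSO and 6.26e-06 in dBRD9-A. In that fit GLI1 had an adjusted p of 7.47e-117 in DMSO, against 6.37e-14 with the filter. The p values with and without the filter are thus not on the same footing. GLI3, known chiefly as the repressor of the family, had 1 count in SMARCB1 DMSO replicate 1 and 0 counts in every other library, which allows a level of up to 0.0847 CPM in the shallowest library.

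PTCH1, the ligand receptor and a pathway target, had 9.27, 9.29 and 9.58 CPM in GFP DMSO and 19.58, 20.09 and 23.69 CPM in SMARCB1 DMSO libraries. Each SMARCB1 library was above each GFP library, and SMARCB1 DMSO replicate 3 was the highest. The rise was 2.26-fold with a 95% interval of 2.05 to 2.5, a log2 change of 1.18 (SE 0.07, adjusted p 6.32e-11). In dBRD9-A the values were 10.26, 9.90 and 9.46 CPM without SMARCB1 and 19.11, 17.54 and 18.85 CPM with it. This gave a rise of 1.87-fold with an interval of 1.68 to 2.07 (log2 change 0.90, SE 0.07, adjusted p 5.03e-09). PTCH1 therefore moved in the direction opposite to GLI1 in both treatments, although both genes are targets of the pathway.

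HHIP, the ligand-sequestering antagonist, had 0 counts in the 3 GFP DMSO libraries and 65, 93 and 122 counts in the SMARCB1 DMSO libraries, which is 1.70, 2.34 and 2.10 CPM. It went from undetected to a level that was low but clear of the floor, at least 34.5-fold higher against a floor of 3 counts per library (adjusted p 1.44e-10). With dBRD9-A there were 0, 1 and 1 counts without SMARCB1 and 75, 91 and 90 counts with it. The ratio of the summed counts per library size was 108, with an exact (Clopper-Pearson) 95% interval of 29.6 to 898 for counting error alone (adjusted p 1.22e-09). The antisense gene HHIP-AS1, which overlaps HHIP in GENCODE 29, had 0 to 2 counts in GFP libraries and 7 to 24 counts in SMARCB1 libraries.

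SUFU, the cytoplasmic inhibitor of the GLI proteins, had 5.29, 5.12 and 5.45 CPM in GFP DMSO and 7.98, 7.34 and 7.28 CPM in SMARCB1 DMSO libraries. The groups did not overlap, and the rise was 1.42-fold with an interval of 1.24 to 1.62 (log2 change 0.51, SE 0.09, adjusted p 0.000104). In dBRD9-A, SUFU was at 6.5, 5.98 and 6.21 CPM without SMARCB1 and at 8.87, 6.71 and 7.84 CPM with it. The SMARCB1 libraries were again all higher, but 1 of them lay close to the highest GFP library. The rise of 0.32 on the log2 scale (SE 0.09, adjusted p 0.00648) was lost when libraries were scaled to spike-in RNA (-0.01, adjusted p 0.967), a scaling that moved the median of all genes in this comparison to -0.32.

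SMO, the signal transducer, was the most abundant member on the CPM scale. It had 47.46, 45.96 and 45.79 CPM in GFP DMSO and 43.09, 45.47 and 44.54 CPM in SMARCB1 DMSO libraries. The log2 change was -0.07 (SE 0.04, 95% interval -0.14 to 0.01, adjusted p 0.125), not past the threshold, and was 0.10 with spike-in scaling, against a median of 0.17 for all genes. In dBRD9-A the levels were 49.88, 48.33 and 45.86 CPM without SMARCB1 and 45.64, 45.54 and 45.56 CPM with it, with a log2 change of -0.08 (SE 0.04, adjusted p 0.0762). That value was past the threshold without GFP dBRD9-A replicate 3 (-0.11, adjusted p 0.0188) and with spike-in scaling (-0.40, adjusted p 2.08e-06, against a median of -0.32 for all genes). In both treatments each SMARCB1 library was lower in SMO than each GFP library, by amounts of the order of the spread between replicates.

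dBRD9-A moved 1 of the 5 tested members in GFP cells, a comparison in which 15.9% of all genes were called. That gene was GLI1, which rose from 7.38 to 8.14 CPM in DMSO to 11.39 to 12.85 CPM, without overlap. The rise was 1.57-fold with an interval of 1.41 to 1.76 (log2 change 0.65, SE 0.08, adjusted p 8.32e-06). The median absolute log2 change of all genes in this comparison was 0.10. SUFU was higher in each of the 3 libraries with dBRD9-A than in any with DMSO, but its log2 change of 0.24 (SE 0.10, adjusted p 0.109) did not pass, and it did so in the fit of GFP libraries alone (0.24, adjusted p 0.0497) and without SMARCB1 dBRD9-A replicate 2 (0.24, adjusted p 0.0463).

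In GFP cells the log2 change was 0.08 for PTCH1 (SE 0.08, adjusted p 0.571) and 0.05 for SMO (SE 0.04, adjusted p 0.404). HHIP and GLI2 were at or under the floor in both groups and have no fold change, although HHIP is counted among the 5 tested members. The 95% interval for PTCH1 was -0.09 to 0.24, below the change seen for GLI1. With spike-in scaling the median of all genes was 0.36, and PTCH1, SMO and SUFU had 0.43, 0.41 and 0.60, close to or above that common shift, while GLI1 had 1.01.

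In SMARCB1 cells 0 of the 5 tested members were called with dBRD9-A, where 1.93% of all genes were called. The induced SMARCB1 mRNA itself differed between these groups, as given above, also for the interaction, and its part in these results was not tested. At an unadjusted p under 0.05 there were 2, GLI1 and PTCH1, and the DESeq2 Wald test called neither. GLI1 was at 1.07, 1.03 and 0.963 CPM in DMSO and at 1.57, 1.31 and 1.51 CPM with dBRD9-A. All libraries with the degrader were higher, and the log2 fold change was 0.51 (SE 0.14, 95% interval 0.23 to 0.80, adjusted p 0.0651). Without SMARCB1 dBRD9-A replicate 2, the lowest of that group, it was 0.60 (adjusted p 0.0464). PTCH1 had -0.20 (SE 0.07, adjusted p 0.151), and HHIP, SUFU and SMO had -0.13 (SE 0.18), 0.05 (SE 0.09) and 0.04 (SE 0.04).

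**Figure D2:**
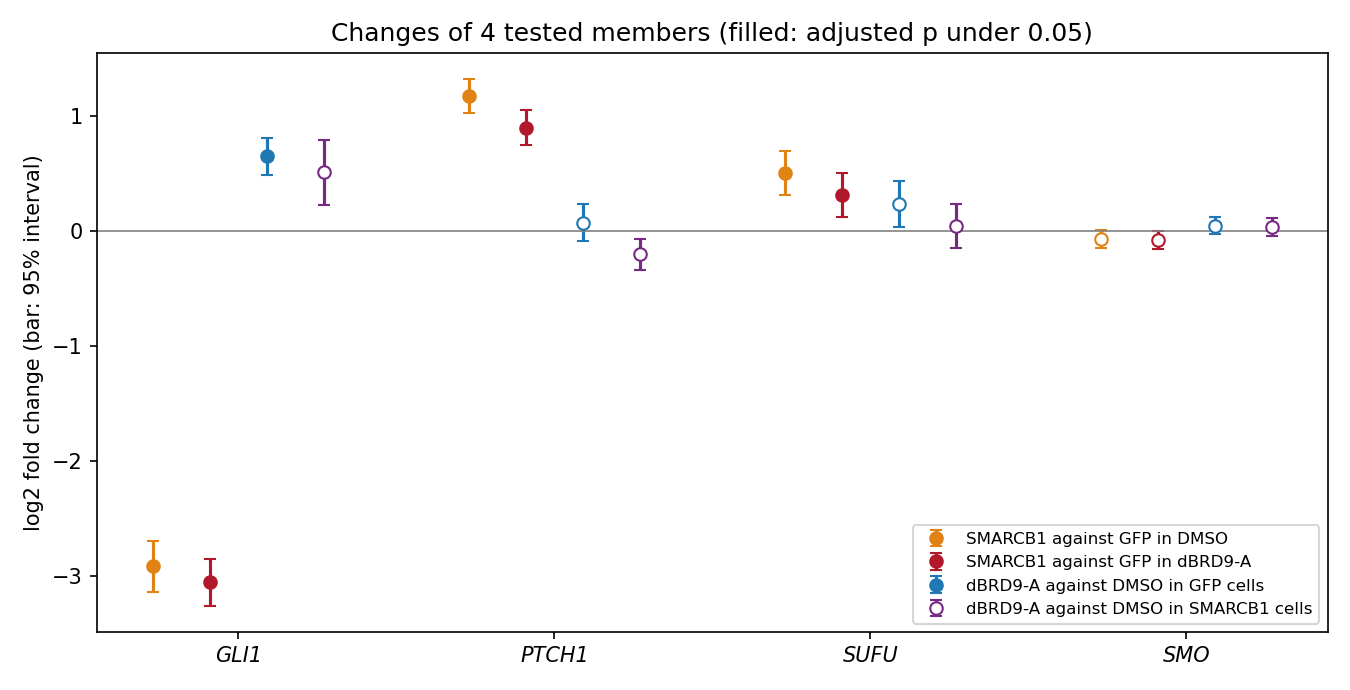
Log2 fold changes of GLI1, PTCH1, SUFU and SMO (vertical axis) in 4 comparisons, with bars for the 95% interval; filled points have an adjusted p under 0.05. GLI1 is at -2.92 and -3.06 for SMARCB1 against GFP and at 0.65 and 0.51 for dBRD9-A against DMSO, and the SMO values lie between -0.08 and 0.05.

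Whether the response to dBRD9-A differed between the cell states was tested by the interaction, for which 3.8% of all genes were called. None of the 5 tested members was called in edgeR (0 of 5), and at an unadjusted p under 0.05 there was 1, PTCH1. The DESeq2 Wald test also called 0. For GLI1 the interaction was -0.14 (SE 0.16, 95% interval -0.47 to 0.19, adjusted p 0.743). The rise of GLI1 was past the threshold in GFP cells and not in SMARCB1 cells, but a difference between these changes was not shown, and the interval allows a smaller or a somewhat larger change with SMARCB1. For PTCH1 the interaction was -0.28 (SE 0.10, adjusted p 0.161) and for SUFU -0.19 (SE 0.13, adjusted p 0.524). The SMARCB1 and dBRD9-A comparisons share libraries, so these values are not independent.

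Levels of different members were compared per kilobase of the longest protein-coding transcript in GENCODE 29, a release that may differ from the annotation behind the counts. In GFP DMSO the order was SMO at 12.41 ± 0.246, GLI1 at 2.13 ± 0.110, PTCH1 at 1.14 ± 0.021 and SUFU at 1.06 ± 0.033 CPM per kilobase (SD, n = 3). HHIP, GLI2 and GLI3 were at 0. PTCH1 and SUFU are neighbours whose order turned when the length of all exons together was used (0.565 and 0.770 CPM per kilobase), an alternative added after the data were seen.

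In SMARCB1 DMSO the order was SMO at 11.87 ± 0.321, PTCH1 at 2.57 ± 0.272, SUFU at 1.51 ± 0.079, GLI1 at 0.283 ± 0.015 and HHIP at 0.203 ± 0.032 CPM per kilobase (SD, n = 3), followed by GLI2 and GLI3. GLI1 thus stood above PTCH1 and SUFU in the absence of SMARCB1 and below both in its presence, with either length. With dBRD9-A the levels in GFP cells were 12.85 ± 0.542 for SMO, 3.35 ± 0.203 for GLI1, 1.25 ± 0.052 for SUFU and 1.20 ± 0.049 CPM per kilobase for PTCH1 (SD, n = 3), the last 2 overlapping between libraries. In SMARCB1 cells with dBRD9-A they were 12.19 ± 0.014 for SMO, 2.25 ± 0.102 for PTCH1, 1.56 ± 0.216 for SUFU, 0.405 ± 0.037 for GLI1 and 0.187 ± 0.021 for HHIP (SD, n = 3). With the length of all exons the order of PTCH1 and SUFU turned in SMARCB1 dBRD9-A libraries (1.115 and 1.138 CPM per kilobase), while in GFP dBRD9-A libraries SUFU was the higher with either length (0.595 and 0.908 with all exons).

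**Figure D3:**
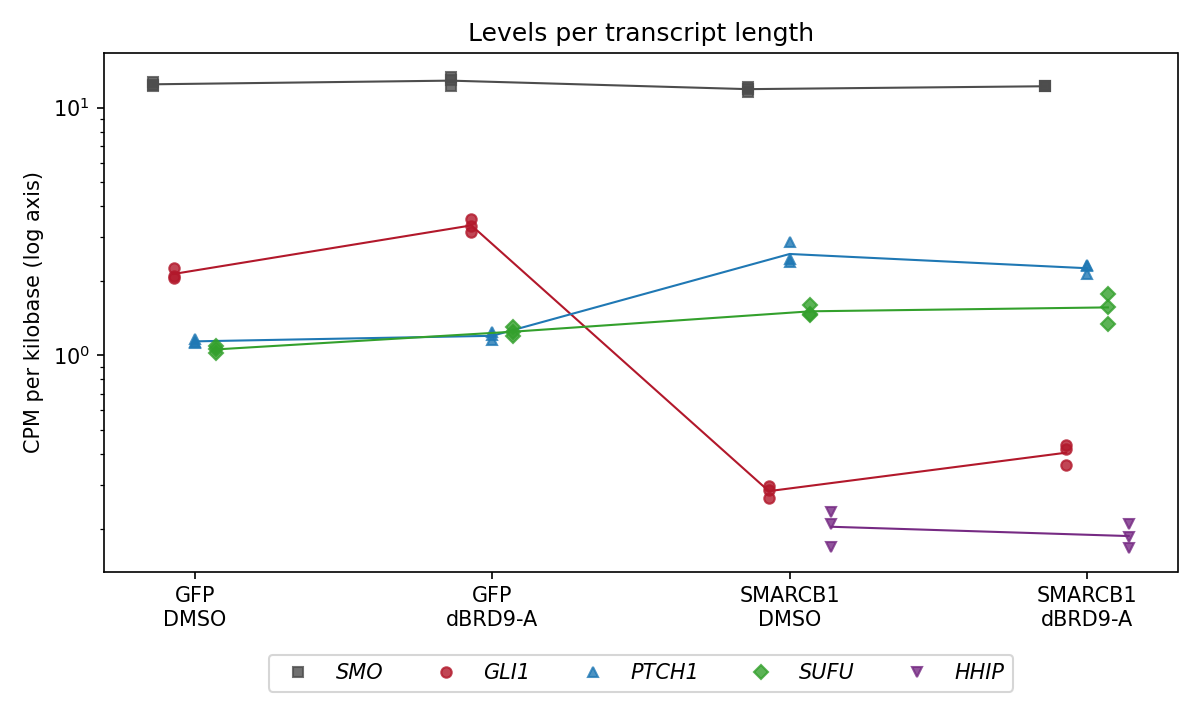
Levels in CPM per kilobase of the longest coding transcript (log axis) in the 4 groups; points are libraries and lines join group means, with HHIP drawn for SMARCB1 cells alone because it was at 0 to 1 counts in GFP cells. The GLI1 line goes from 2.13 in GFP DMSO to 0.283 in SMARCB1 DMSO and crosses those of PTCH1 and SUFU, while SMO stays near 12.

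Other genes of the pathway were taken from lists by role. The ligand genes SHH, IHH and DHH had 0 to 5 counts per library in all groups and were not tested. Of 8 genes for ligands and their release, 4 were tested. SMARCB1 raised 3 of them in DMSO and lowered 0 (median log2 fold change 0.56, against -0.01 for all genes). This stands beside 65% of all genes called, and DESeq2 called 2 of the 4. SCUBE3, which codes for a secreted protein of the family that helps ligand leave the cell, had 10 to 13 counts in GFP DMSO and 78 to 160 in SMARCB1 DMSO libraries, a log2 change of 3.51 (SE 0.24, adjusted p 4.4e-10). HHAT, the enzyme that attaches palmitate to the ligands, rose from 9.14 to 9.28 CPM to 16.26 to 17.19 CPM (log2 change 0.85, SE 0.06, adjusted p 3.73e-10). DISP1, which exports the ligand, rose by 0.27 (SE 0.11, adjusted p 0.0346).

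In dBRD9-A the same comparison gave 2 higher and 1 lower gene of these 4, beside 63.3% of all genes called. The lower one was SCUBE1 (2 to 16 counts with SMARCB1, 20 to 28 without), named after its values were seen. SCUBE3 and HHAT were the higher ones, with log2 fold changes of 3.15 (SE 0.24) and 0.87 (SE 0.06). DISP1 had -0.06 (SE 0.11, adjusted p 0.663) there. For dBRD9-A itself edgeR and DESeq2 called 0 of the 4 in either cell state, with 2 at an unadjusted p under 0.05 in GFP cells and 0 in SMARCB1 cells. Of all genes edgeR called 15.9% in GFP cells and 1.93% in SMARCB1 cells. Spike-in scaling called 3 of the 4 higher in GFP cells, HHAT at 0.28, DISP1 at 0.65 and SCUBE1 at 1.25, against the median of 0.36 for all genes.

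Among receptor-level genes 3 of 6 were tested. CDON, a co-receptor that binds ligand together with PTCH1, had 4.26, 4.63 and 4.15 CPM in GFP DMSO and 19.14, 17.64 and 21.80 CPM in SMARCB1 DMSO libraries. The groups were far apart, with a log2 change of 2.18 (SE 0.09, adjusted p 2.63e-13), and of 2.02 (SE 0.09, adjusted p 1.92e-12) in dBRD9-A. GPC3, a glypican that competes for ligand, fell by 0.43 on the log2 scale (SE 0.03, adjusted p 4.35e-11), from 224.9 to 226.2 CPM to 164.9 to 168.4 CPM. GPC3 was also the 1 gene of the 3 called for dBRD9-A in SMARCB1 cells, beside 1.93% of all genes. It fell there by 0.12 (SE 0.03, adjusted p 0.0132). The co-receptor genes BOC and GAS1 and the receptor gene LRP2 had 0 to 25 counts and were not tested.

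All 16 genes of signal transduction and GLI processing were tested, and 8 were called with SMARCB1 in DMSO, 5 higher and 3 lower (median 0.04), or 11 higher and 1 lower with spike-in scaling. That is 8 of 16 beside 65% of all genes, so calls in this list were no more frequent than among genes in general. PRKACB, a catalytic subunit of protein kinase A, which phosphorylates GLI proteins, had 9.30 to 9.70 CPM in GFP DMSO and 23.93 to 27.40 CPM in SMARCB1 DMSO libraries, a log2 change of 1.43 (SE 0.07, adjusted p 9.78e-12). GPR161, a ciliary receptor that keeps the pathway low, rose by 0.70 (SE 0.08, adjusted p 4.54e-07). SPOP, the adaptor of an E3 ubiquitin ligase that targets GLI proteins for degradation, fell by 0.60 (SE 0.03, adjusted p 2.04e-11), from 137.4 to 144.5 CPM to 92.05 to 95.63 CPM. These 3 kept their sign under spike-in scaling, in DMSO and in dBRD9-A. In dBRD9-A 10 of the 16 were called, beside 63.3% of all genes, 6 higher and 4 lower, and with spike-in scaling 2 higher and 12 lower.

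dBRD9-A in GFP cells changed 4 of these 16, beside 15.9% of all genes, 3 higher and 1 lower, by small amounts. DESeq2 called 3 of the 16. GPR161, BTRC (a ubiquitin ligase adaptor for GLI processing) and GRK2 (a kinase acting on SMO) rose by 0.26, 0.19 and 0.18 (SEs 0.08, 0.04 and 0.05, adjusted p values 0.0448, 0.00492 and 0.0145). SPOP, chosen after its values were seen, had -0.15 (SE 0.03, adjusted p 0.0027), which spike-in scaling turned into 0.21. With that scaling 16 of the 16 were higher, around the common shift of 0.36. In SMARCB1 cells 0 of the 16 were called in edgeR, beside 1.93% of all genes, and 0 in DESeq2, with 1 at an unadjusted p under 0.05.

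All 8 genes of the primary cilium were tested. With SMARCB1 in DMSO 4 were higher and 4 lower (4 and 1 with spike-in scaling), with a median of -0.02. This stands beside 65% of all genes called, and DESeq2 called 7 of the 8. KIF3A, a subunit of the kinesin that carries cargo into the cilium, and TTBK2, a kinase that starts its assembly, rose by 0.42 and 0.38 (SEs 0.07 and 0.05, adjusted p values 3.96e-05 and 3.2e-06). IFT88, a core subunit of intraflagellar transport, fell by 0.37 (SE 0.05, adjusted p 2.15e-06). Among the 8, beside 15.9% of all genes, dBRD9-A left 1 higher and 1 lower in GFP cells (7 and 0 with spike-in scaling). IFT80, a subunit of intraflagellar transport, was the lower one, at -0.20 (SE 0.04, adjusted p 0.00152), and spike-in scaling gave it a value of 0.16. IFT88 was the 1 gene called in SMARCB1 cells, beside 1.93% of all genes, at 0.21 (SE 0.05, adjusted p 0.0332). That call was lost with spike-in scaling (0.07, adjusted p 0.54), and DESeq2 called 0 of the 8 there.

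Of 14 further genes described as GLI targets, 9 were tested, and MYCN, FOXF1, FOXF2, SFRP1 and NKX2-2 had 0 to 4 counts per library. With SMARCB1 in DMSO 6 rose and 2 fell (6 and 1 with spike-in scaling), with a median of 0.20, unchanged with FOXL1 at its bound. These 8 of 9 stand beside 65% of all genes called, so a change as such was common. FOXL1, at 0 to 3 counts per GFP library, passed the count filter through the SMARCB1 libraries alone. Its call between the cell states was therefore nearly fixed in advance. CCND2, which codes for a D-type cyclin, had 10, 15 and 12 counts in GFP DMSO and 832, 980 and 1338 counts in SMARCB1 DMSO libraries, a log2 change of 6.59 (SE 0.16, adjusted p 1.65e-16). FOXL1, a forkhead factor of mesenchyme, had 1 count in each GFP DMSO library and 221, 209 and 297 in SMARCB1 DMSO libraries. The ratio of its sums was 277, with an exact 95% interval of 94.4 to 1350 for counting error (adjusted p 1.71e-13).

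BCL2, an inhibitor of apoptosis, moved the other way. It had 56.87, 56.48 and 57.03 CPM in GFP DMSO and 25.24, 23.97 and 26.44 CPM in SMARCB1 DMSO libraries, a log2 change of -1.17 (SE 0.04, adjusted p 7.26e-14). The genes described as GLI targets therefore did not share a direction, and the steepest rises, of CCND2 and FOXL1, and the fall of BCL2 were each far larger than the spread between replicates. In dBRD9-A 6 rose and 3 fell, beside 63.3% of all genes called, and with spike-in scaling 2 were higher and 4 lower.

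**Figure D4:**
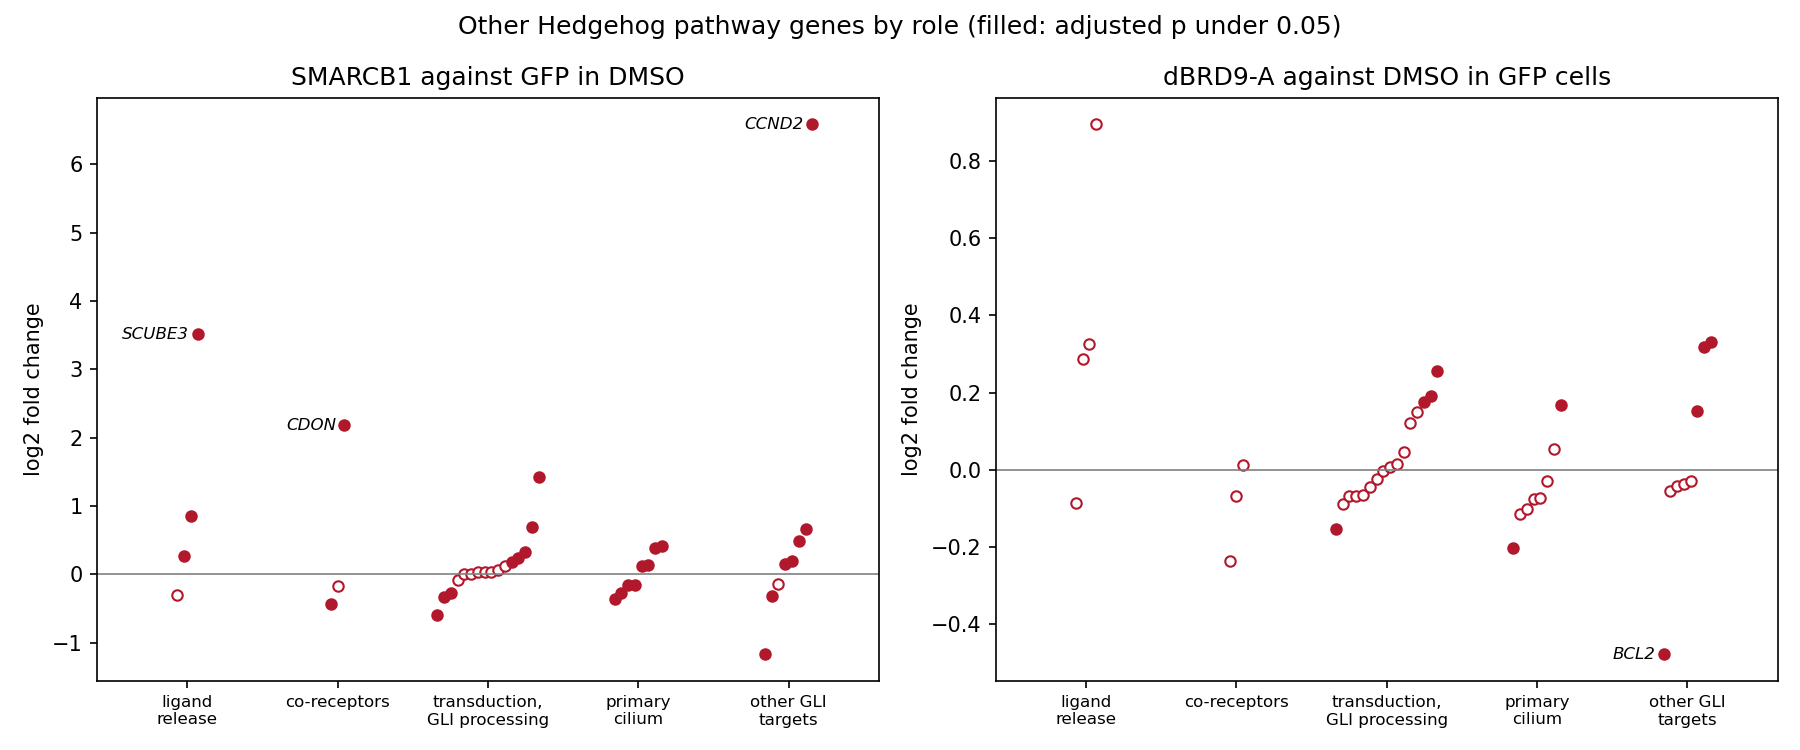
Log2 fold changes of tested genes outside the 7 members, by role, for SMARCB1 against GFP in DMSO (left) and dBRD9-A against DMSO in GFP cells (right); each point is a gene, filled where the adjusted p is under 0.05, and FOXL1 is left out because GFP libraries were at the floor. On the left CCND2 is at 6.59, SCUBE3 at 3.51 and CDON at 2.18, and on the right the called values lie between -0.48 and 0.33.

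With dBRD9-A in GFP cells 4 of these 9 targets changed, beside 15.9% of all genes, 3 higher and 1 lower, or 6 higher and 0 lower with spike-in scaling. BCL2 was at 40.55, 39.74 and 42.16 CPM, below each DMSO library (log2 change -0.48, SE 0.04, adjusted p 2.38e-07), while spike-in scaling gave -0.12 (adjusted p 0.173). SNAI1, a transcriptional repressor, and JAG2, a Notch ligand, rose by 0.33 and 0.32 (both SE 0.06, adjusted p values 0.00153 and 0.00203). The interaction was called for 4 of the 9, beside 3.8% of all genes, with 1 positive and 3 negative. Spike-in scaling gave 0 positive and 7 negative, and DESeq2 called 1 of the 9. SNAI1 and JAG2 had interactions of -0.36 (SE 0.09, adjusted p 0.0351) and -0.33 (SE 0.09, adjusted p 0.0408). In SMARCB1 cells no rise of either with dBRD9-A was seen (-0.03 and -0.01, adjusted p values 0.918 and 0.97). BCL2 had an interaction of 0.24 (SE 0.06, adjusted p 0.04), which spike-in scaling turned into -0.26. The remaining called gene, BMP4, named after its values were seen, had -0.21 (SE 0.04, adjusted p 0.00266).

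Genes that overlap members on the opposite strand in GENCODE 29 bear on these counts, since the library kit keeps strand, but whether the counting used it is not given in the sources used here. ARHGAP9, which overlaps GLI1, had 1 to 22 counts in GFP libraries and 11 to 29 in SMARCB1 libraries, against 336 to 488 and 41 to 71 for GLI1. AL161729.1 and AL161729.4, which overlap PTCH1, had at most 41 counts in a library. The opposite-strand genes overlapping SMO and SUFU had 0 counts, and RNU6-43P, on the same strand as SUFU, had 0 to 1.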

How the data were processed

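RNA of 12 G401 libraries was analysed from 3 tables of expected counts per gene, deposited by the authors with 1 column per library and no scaling. STAR, RSEM 1.3.1 and GRCh37/hg19 are named in the submitters' processing notes, with no role or order. The annotation and the use of strand are not given in the sources used here. RSEM divides reads that fit several genes, so 2.57% of values were not whole. The 6 columns that occur in 2 tables held identical values. Counts were rounded, and library sizes and tests excluded the 40 ERCC spike-ins (0.963% to 1.3% of counts). Symbols came from a table of Ensembl identifiers without version, which matched 51996 of 57820. Genes were filtered with filterByExpr (minimum count 10), scaled by TMM (factors 0.9765 to 1.016) and tested with edgeR 4.0.16 in R 4.3.3, with 1 coefficient per group over 12 libraries and 5 contrasts. SEs come from the quasi-F statistic and 95% intervals from its degrees of freedom. The script was tested on simulated data. Alternatives used DESeq2 1.42.0, its size factors, no count filter, the groups compared alone, a replicate block, spike-in scaling and leaving out each library.

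Text names all 7 members, of each further list at most the 3 largest called changes with a mean of at least 50 counts (lists with 3 or fewer tested genes in full), and 2 genes of like pattern per tested member. Values of some genes that this rule names are not reported here. Members and lists were chosen with earlier results of these data known. Replicates of 1 group differed by more than sampling noise (chi-square divided by its degrees of freedom 2.954 to 25.62).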

Additional observations from a re-analysis of the deposited data

How the results depend on the processing

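Under DESeq2 size factors and the DESeq2 Wald test the number of members called in each of the 5 comparisons was 4, 4, 1, 0 and 0, as in the edgeR fit with TMM, and without a count filter GLI2 made it 5 in the SMARCB1 comparisons. Spike-in scaling called 4 members for dBRD9-A in GFP cells, 1 for dBRD9-A in SMARCB1 cells (PTCH1, -0.34, adjusted p 0.0198) and 5 for the interaction, in comparisons where 71.8%, 5.54% and 71.6% of all genes were then called around a common shift of 0.36, -0.14 and -0.49. SUFU for SMARCB1 against GFP in dBRD9-A turned to -0.006 under it. The interaction of GLI1 was then -0.64 (adjusted p 0.00385). The labels do not say how spike-ins were added, and the cause was not tested. The fit of the groups compared alone called 2 members for dBRD9-A in GFP cells, GLI1 and SUFU. Leaving out a library gave 1 to 2 members for dBRD9-A in GFP cells and 0 to 1 in SMARCB1 cells, the higher count coming without SMARCB1 dBRD9-A replicate 2 in both. With the replicate block 4, 4, 1, 0 and 0 members were called in the 5 comparisons, as without it. Deviations of same-numbered libraries had correlations of -0.056 to 0.061 over 18 pairs, and 4 of 12 libraries correlated more with their own number, so the numbers were not used as pairs. Of the fits per member and comparison, 429 stayed called or uncalled, where uncalled values could change sign. A call was gained in 14 and lost in 1, that of SUFU at -0.006 with spike-in scaling. Depth limits GLI2, GLI3 and, in GFP cells, HHIP.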

Other observations

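Genes whose log2 CPM ran most like that of each tested member over the 12 libraries were sought among 12268 genes with a mean of at least 50 counts. For GLI1 these were RRAGD and NEIL2 (Pearson r 0.998 each), and for HHIP RALB and LMAN2L (0.998 each). For PTCH1 they were SFMBT2 (0.993) and IGF2R (0.992), and for SUFU IRAK2 (0.971) and RAB3D (0.967). SMO had the weakest likeness, to the pseudogene SERBP1P1 (0.928) and to ERCC6L (0.915). The libraries fall into the 2 cell states, so values near 1 describe the difference between these states and have no p.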
